A study of Mus musculus with 2 samples.

Results

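Rag1, Rag2, Dntt and Ptcra, the genes that cut, diversify and first test antigen receptor genes in developing lymphocytes, were followed in a mouse T-cell leukemia in which the transcription factor Ikaros was silenced or allowed to return. They were chosen by name, and all 4 were found among the 27179 genes of the deposited count table by Entrez identifier. The cells were ALL211, a primary T-cell acute lymphoblastic leukemia (T-ALL) with the transgenes Vav-tTA and TRE-GFP-shIkaros. In both groups the Vav promoter, active in blood-forming cells, drives a tetracycline-controlled transactivator, which in turn drives a hairpin against Ikaros linked to GFP. Doxycycline (Dox) stops the hairpin. Untreated cells (n = 1 library) were sorted as GFPhigh and cells given Dox for 3 days (n = 1 library) as GFPmid, both from spleens of leukemic recipient mice. ALL211 is a single primary leukemia, so the values describe this leukemia alone.

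RAG1 and RAG2, the products of Rag1 and Rag2, form the recombinase that cuts DNA at receptor gene segments, and neither cuts without the other. Terminal transferase (TdT), encoded by Dntt, adds nucleotides without a template at the cut ends before end-joining proteins seal them. In thymocytes, a T-cell receptor beta chain made this way pairs with the pre-T-cell receptor alpha chain, encoded by Ptcra, and CD3 proteins carry the signal that moves cells from the double-negative to the double-positive stage. Ptcra is a known Notch target, and all 4 genes are known for high levels in immature thymocytes and low levels in mature T cells.

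Each condition had 1 library, so nothing below has a replicate check, no p-value is given, and treatment, sorting gate and mouse cannot be told apart. No samples given Dox in the absence of the hairpin were analysed here. Intervals are 95% intervals that cover counting error only, and PCR copies make reads less independent than they assume. The libraries held 16960042 (untreated) and 16484613 (Dox) counts. Levels are in CPM, the usual depth-scaled unit of read counts, and 3 counts, the floor of detection, equal 0.176 CPM (untreated) and 0.183 CPM (Dox). Ikzf1, which encodes Ikaros, had 2057 and 20131 counts, the direction the labels give. All 11 T-lineage markers looked up, among them Cd3d, Thy1, Lck and Tcf7, were measured in both libraries, and 10 lay within 2-fold.

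Rag1 nearly disappeared from the counts of the Dox library. Untreated cells gave 1762 counts, or 103.2 CPM (interval 98.5 to 108.2), and Dox-treated cells 45 counts, or 2.75 CPM (interval 2.004 to 3.68). The untreated library was the high one by a wide margin, and the counting intervals were far apart. The level in the Dox library was 2.66% of the untreated level (interval 1.93% to 3.58%), a log2 fold of -5.17.

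Rag2, the partner subunit, was scarcely detected in either library. It had 2 counts in the untreated library, or 0.117 CPM (interval 0.0142 to 0.423), and 0 counts in the Dox library, where the floor of 3 counts stands at 0.183 CPM and the interval reaches up to 0.225 CPM. Both values lie at or under the floor of 3 counts, so no fold is given and a difference was not detectable at this depth. Per kilobase of gene length, Rag1 stood 448.2 times above Rag2 in the untreated library (interval 123.9 to 3704). At the per-length level of Rag1, Rag2 would have received 896.5 counts (untreated) and 22.9 counts (Dox). In these libraries the transcript of 1 recombinase subunit was thus well detected in untreated cells while the other was at the limit of detection.

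Part of the Rag2 sequence is shared with another annotated gene. In the GENCODE M21 annotation (GRCm38), 208 of 3424 exonic bases of Rag2, or 6.07%, lie under exons of Iftap, a gene of the opposite strand that is listed there as B230118H07Rik. Rag1 shares 80 of 6608 exonic bases with Iftap there, or 1.21%, on the same strand, while no exonic base of Dntt or Ptcra is shared with another gene. In RefSeq positions, however, Iftap ends before Rag1 begins, so the Rag1 overlap depends on the annotation. How strand and shared bases were handled in counting is not stated in the submitters' notes or labels, so reads in those bases cannot be assigned with certainty. The other 93.9% of the Rag2 exonic bases hold no such overlap.

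Dntt was the most abundant of the 4 genes in both libraries. Its 8592 counts in untreated cells gave 503.3 CPM (interval 492.7 to 514.1), and its 1411 counts in Dox-treated cells 86.2 CPM (interval 81.7 to 90.8). The Dox library was again the low one, but TdT transcripts stayed plentiful there. The remaining level was 17.1% of the untreated level (interval 16.2% to 18.1%), a log2 fold of -2.54.

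Ptcra was low in both libraries. Its 32 counts in untreated cells gave 1.87 CPM (interval 1.28 to 2.65), and its 1 count in Dox-treated cells 0.0611 CPM (interval 0.00155 to 0.340). The intervals of the 2 libraries do not meet, although the Dox value rests on a single count. The ratio of Dox to untreated was 0.0326, with an interval of 0.000800 to 0.195, so the data place the Dox level at no more than 19.5% of the untreated level without fixing it closely.

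**Figure D1:**
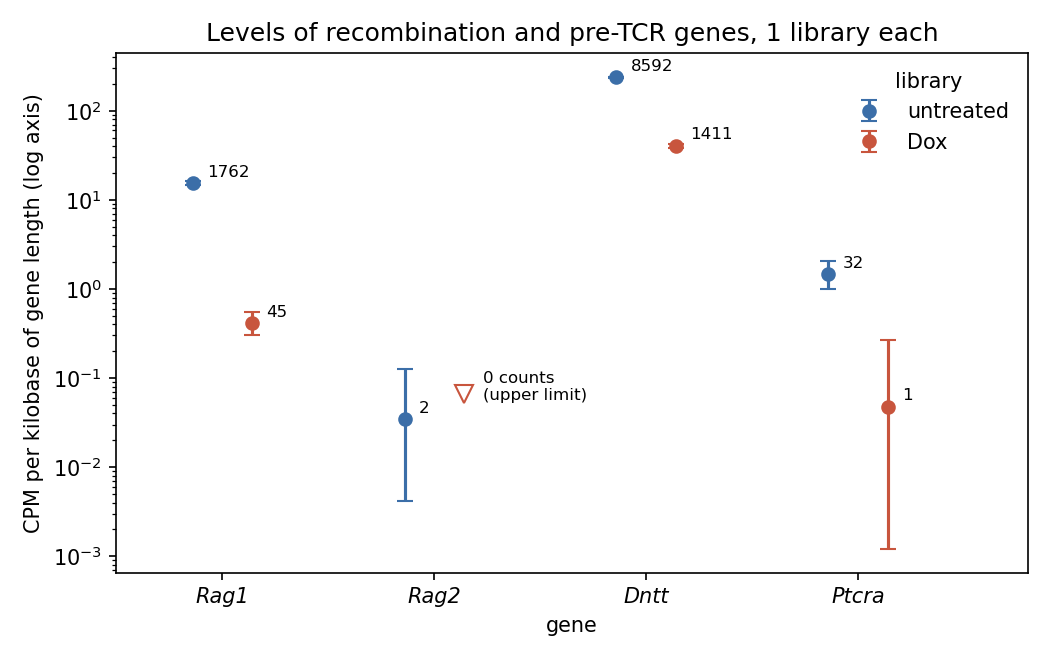
Levels of Rag1, Rag2, Dntt and Ptcra in the untreated (blue) and Dox (red) library, in CPM per kilobase of gene length on a log axis, with 95% counting intervals as bars and read counts beside the points. Dntt is highest and Rag2 lowest in the untreated library, and Rag1, Dntt and Ptcra each lie lower in the Dox library; the open triangle is the upper limit for 0 counts of Rag2.

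On the per-length scale, in CPM per kilobase, the untreated order was Dntt (236.3), Rag1 (15.5), Ptcra (1.46) and Rag2 (0.0345). No neighbouring intervals in that order overlapped. Dntt exceeded Rag1 by 15.3 times (interval 14.5 to 16.1), Rag1 exceeded Ptcra by 10.6 times (7.48 to 15.5), and Ptcra exceeded Rag2 by 42.3 times (10.8 to 364.4). In the Dox library Dntt stood at 40.4, Rag1 at 0.412, Ptcra at 0.0476 and Rag2 at 0. Dntt then exceeded Rag1 by 98.2 times (73.0 to 135.2), and Rag1 exceeded Ptcra by 8.66 times with a wide interval of 1.48 to 349.4. Ptcra and Rag2 could not be ordered in the Dox library, since their counts were 1 and 0.

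The 3 genes with a usable fold were lower by different amounts. Rag1 was 37.6-fold lower in the Dox library (interval 27.95 to 51.7) and Dntt 5.84-fold lower (interval 5.52 to 6.18). The decrease of Rag1 was 6.43 times that of Dntt (interval 4.76 to 8.90), a comparison in which library scaling cancels. Ptcra was 30.7-fold lower (interval 5.13 to 1250). This ratio uses no prior count, whereas its log2 fold of -3.46 does and is therefore smaller in size. The decrease of Ptcra could not be told apart from that of Rag1 (1.22 times greater for Rag1, interval 0.0294 to 7.68) or from that of Dntt (0.190 times as great for Dntt, interval 0.00467 to 1.14). Of the counts that the 4 genes received together, 10388 in the untreated and 1457 in the Dox library, Dntt took 82.7% and 96.8%, and Rag1 17.0% and 3.09%.

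The background is given by the 12125 genes that reached 1 CPM in either library. Of these, 13.0% lay below the lower 2-fold line in the Dox library (a log2 fold of -1 or less) and 13.6% above the upper one (1 or more), with a median log2 fold of -0.01. Of the 4 genes, 3 passed this filter, and all 3 lay below the lower 2-fold line; Ptcra passed through the untreated library alone, which favours a lower value in the other. At least 4-fold lower were 3.07% of genes and again these 3. An interval wholly beyond 2-fold lower was found for 8.38% of genes and for Rag1, Dntt and Ptcra. Only 16 of the 12125 genes, Rag1 included, had a log2 fold at or below that of Rag1, 79 did so for Ptcra and 190 for Dntt. Measured per length, 2.84% of these genes lay above Dntt in untreated cells and 20.3% in Dox-treated cells. For Rag1 the share above it went from 43.5% to 95.3%.

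**Figure D2:**
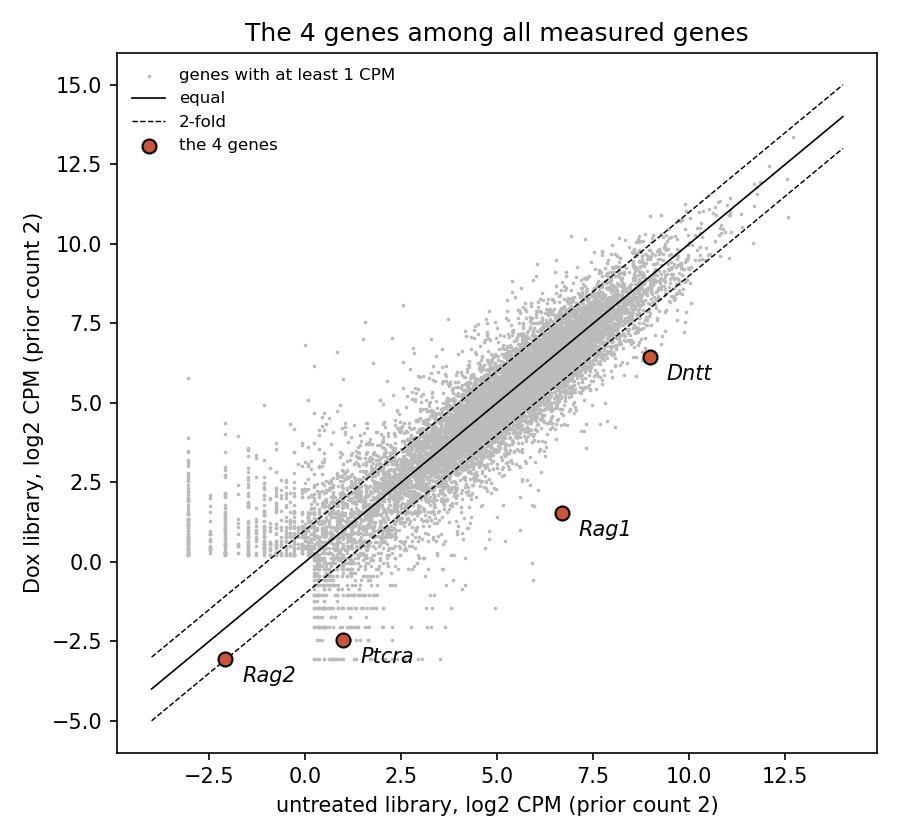
Log2 CPM in the Dox library against the untreated library for genes that reached 1 CPM in either library (grey) and the 4 genes (red), with a solid line for equal levels and dashed lines for 2-fold. Rag1, Dntt and Ptcra lie below the lower dashed line, with log2 folds of -5.17, -2.54 and -3.46; Rag2, at 2 and 0 counts, failed the filter and its position near the axis floor is set by the prior count.

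Genes with the most similar pair of levels were sought by the Euclidean distance of log2 CPM over the 2 libraries. Closest to Rag1 were Tnfrsf8, which encodes the receptor CD30 (1057 and 53 counts, distance 0.77), Il2ra, the interleukin-2 receptor alpha chain CD25 of double-negative thymocytes (1018 and 54 counts, distance 0.83), and Bcat1, a branched-chain aminotransferase (1133 and 77 counts, distance 0.98). Closest to Dntt were C1qbp (7437 and 1325 counts, distance 0.23), the nucleolar phosphoprotein gene Nolc1 (distance 0.28) and Atic, an enzyme of purine synthesis (distance 0.33). Near Ptcra lay Mtus2 and Snora73a, each with 36 and 1 counts (distance 0.16), and the protease gene Hpn (31 and 2 counts, distance 0.42). The nearest gene to Rag2 was at a distance of 2.31, because a gene that low fails the filter that all candidates passed. With 2 libraries, this likeness says only that the paired levels were close.

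The Rag locus was examined for its neighbours. On GRCm38, Rag1 lies at chr2:101638252-101649532 and Rag2 at chr2:101624712-101632528, 5.7 kb apart and pointing towards each other. Iftap, which overlaps the start of Rag2, had 44 counts in the untreated and 6 in the Dox library (2.58 and 0.366 CPM), a log2 fold of -2.47 with an interval of -4.34 to -1.58. GENCODE extends Iftap to position 101649532, the same base at which RefSeq starts Rag1, whereas RefSeq ends Iftap at 101629031. Whether the Iftap counts come partly from the Rag1 start was not tested. Traf6, a ubiquitin ligase gene 28.9 kb beyond Rag1, had 1456 and 1662 counts (log2 fold 0.25, interval 0.15 to 0.35), and Commd9, 236.7 kb away, had 419 and 329 (log2 fold -0.29, interval -0.50 to -0.08). The low Dox values of Rag1 and Iftap thus did not extend to Traf6.

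Neighbours of Dntt and Ptcra also differed from them. Dntt lies at chr19:41029275-41059525, and of 6 other measured genes within 300 kb, 0 lay below the lower and 3 above the upper 2-fold line; of the 3, Blnk and Pik3ap1 reached 1 CPM through the Dox library alone. The nearest, Blnk, an adaptor of B cells and myeloid cells, had 2 and 18 counts, and Zfp518a had 576 and 607 (log2 fold 0.13). On the other side Tm9sf3 had a log2 fold of 0.24, and Pik3ap1 had 6 and 69 counts. Ptcra lies at chr17:46755663-46763712, where 3 of 18 other genes within 300 kb lay below and 2 above the 2-fold lines, with a median log2 fold of 0.01. Of the 2, Cul9 (8 and 28 counts) reached 1 CPM through the Dox library alone. Over all measured genes 13.0% lay below and 13.6% above. Its closest neighbours, Cnpy3 and 2310039H08Rik, had log2 folds of -0.50 and -0.98, and the next ones, Pex6 and Rpl7l1, 0.05 and -0.73. No measured gene within 300 kb of Rag1 or Dntt had a log2 fold as low as theirs, whereas near Ptcra the nucleotide hydrolase gene Dnph1, 256 kb away, had a lower one (472 and 25 counts, -4.08).

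**Figure D3:**
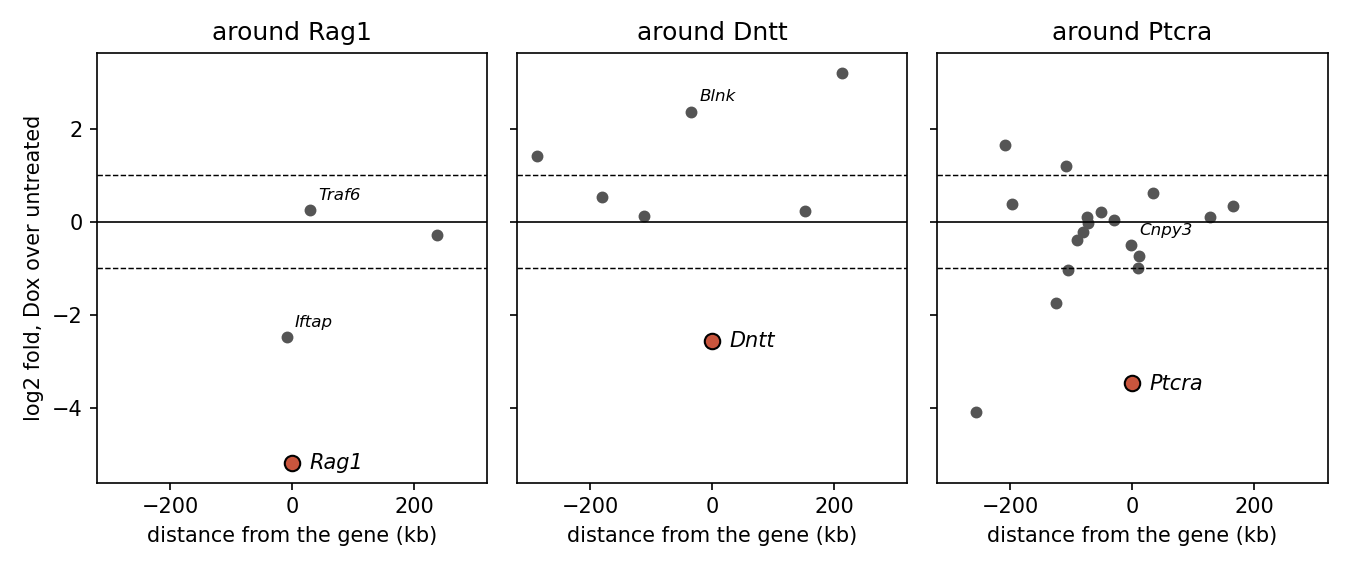
Log2 fold, Dox over untreated, of the measured genes within 300 kb of Rag1, Dntt and Ptcra (grey) against their distance in kb, with the named gene itself in red at 0 and dashed lines at 2-fold. Beside Rag1, Iftap is low at -2.47 and Traf6 near 0 at 0.25; around Dntt 0 of 6 neighbours lie below the lower dashed line, and around Ptcra 3 of 18 (13.0% over all measured genes).

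Because Rag1, Dntt and Ptcra were all lower, their promoter windows are shown, with that of Rag2 for comparison. Each runs from 250 bases before to 50 after the RefSeq start (GRCm38.p6), 5′ to 3′ on the gene's strand. Capitals mark TGGGAA on either strand, letters known as a core of Ikaros binding and also of RBPJ, the DNA-binding partner of Notch. The windows are chr2:101649483-101649782 (minus strand) for Rag1, chr2:101624462-101624761 (plus) for Rag2, chr19:41029025-41029324 (plus) for Dntt and chr17:46763663-46763962 (minus) for Ptcra.

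Rag1: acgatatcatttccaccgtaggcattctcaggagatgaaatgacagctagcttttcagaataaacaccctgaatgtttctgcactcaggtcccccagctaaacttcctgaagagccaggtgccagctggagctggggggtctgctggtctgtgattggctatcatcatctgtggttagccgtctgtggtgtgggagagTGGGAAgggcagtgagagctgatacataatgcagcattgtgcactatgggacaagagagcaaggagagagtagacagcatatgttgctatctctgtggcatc

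Rag2: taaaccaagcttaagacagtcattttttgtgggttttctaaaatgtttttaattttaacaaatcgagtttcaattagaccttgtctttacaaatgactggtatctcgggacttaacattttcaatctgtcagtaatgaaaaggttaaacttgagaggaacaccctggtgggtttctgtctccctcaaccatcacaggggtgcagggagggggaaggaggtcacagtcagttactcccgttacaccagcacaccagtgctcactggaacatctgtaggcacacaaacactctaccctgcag

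Dntt: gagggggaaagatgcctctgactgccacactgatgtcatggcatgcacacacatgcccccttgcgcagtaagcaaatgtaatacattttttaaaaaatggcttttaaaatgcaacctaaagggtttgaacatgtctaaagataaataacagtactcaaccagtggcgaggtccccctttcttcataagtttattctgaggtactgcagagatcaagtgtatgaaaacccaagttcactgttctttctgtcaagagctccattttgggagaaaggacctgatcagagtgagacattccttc

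Ptcra: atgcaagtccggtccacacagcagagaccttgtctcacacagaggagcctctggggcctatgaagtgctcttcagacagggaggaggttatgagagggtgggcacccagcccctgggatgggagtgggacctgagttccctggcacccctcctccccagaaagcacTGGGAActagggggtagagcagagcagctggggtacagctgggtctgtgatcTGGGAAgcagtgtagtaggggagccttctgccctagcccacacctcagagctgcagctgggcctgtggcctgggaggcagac

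TGGGAA occurs once in the Rag1 window, with its first base 52 bases before the start, and at 2 places in the Ptcra window, 84 and 32 bases before it. The Dntt and Rag2 windows hold 0 matches. Only these exact letters were searched, so 0 matches does not mean that a window lacks an Ikaros site. The close form TGGGAG, which can be read in the Rag1, Dntt and Ptcra windows, was not counted. Of all 32851 promoter windows, 25.6% hold these letters, so the matches are common ones. In Rag1 at 52 and in Ptcra at 32 bases before the start, the letters run on into GGAAG, a core of ETS factors, which 71.4% of windows hold. GGAAG also occurs in Rag1 at 148 and in Rag2 at 40 bases before the start, and the Dntt window holds 0 matches. The RUNX letters TGTGGT occur at 2 places in the Rag1 window, 81 and 67 bases before the start, and in none of the other 3 windows (16.8% of all windows hold them). E-box letters CANNTG, read by E proteins, occur 4 times in the Rag1 window, 2 in Rag2, 3 in Dntt and 3 in Ptcra, and in 72.3% of all windows. AGATAA, read by GATA factors, occurs once in Dntt (11.2% of windows), and AACNG, read by MYB, at 2 places each in Rag2 and Dntt (80.3%). The FOXO letters GTAAACA (3.65%), the TCF1 and LEF1 letters CTTTGA (16.0%) and TATAAA (13.6%) occur in none of the 4 windows. CTCANTCT, the letters of an initiator element, matches once in the Dntt window, 32 bases after the start and on the strand opposite to the gene (5.63% of windows on either strand). GC content was 61.7% for Ptcra, 50.0% for Rag1, 43.0% for Rag2 and 42.3% for Dntt, against a median of 52.7% over all windows.

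The rest of the recombination machinery showed far smaller differences. Among 18 cofactors of the recombinase and proteins of the response to DNA breaks, all of them measured, 3 lay below and 0 above the 2-fold lines. The shares over all measured genes were 13.0% below and 13.6% above. All 18 log2 folds were below 0, with a median of -0.58 against -0.01 over all genes. The lowest were Rif1, which protects broken ends from resection (-1.13), the ubiquitin ligase gene Rnf168 (-1.07), Nbn, a subunit of the MRN break sensor (-1.04), and the scaffold gene Mdc1 (-0.90). Hmgb1 and Hmgb2, DNA-bending proteins that help the recombinase at its signal sequences, had log2 folds of -0.61 and -0.40. Atm, the kinase that responds to breaks, had 1780 and 1641 counts (-0.06).

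End-joining genes went both ways. Of 15 measured, 2 lay below and 0 above the 2-fold lines, with a median log2 fold of -0.11. Over all measured genes 13.0% lay below, a share that the 2 here do not clearly exceed, and 13.6% above. The 2 were the Ku subunits that hold DNA ends, Xrcc6 (Ku70; 440.5 and 164.1 CPM, log2 fold -1.42) and Xrcc5 (Ku80; 112.8 and 53.2 CPM, -1.08). The end-processing enzyme Tdp1 had -0.79 and the Ku-binding factor Paxx 0.82. Dclre1c, which encodes Artemis, the nuclease that opens the hairpin ends left by the recombinase, had 198 and 300 counts (0.65), and the ligase gene Lig4 had 1284 and 1526 (0.31). The genes that finish the reaction were thus present in both libraries, including the one where Rag1 was low.

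TdT belongs to the family X DNA polymerases, and its relatives did not share its difference. Polm, which encodes polymerase mu, had 183 counts in the untreated and 272 in the Dox library (10.7 and 16.6 CPM, log2 fold 0.63, interval 0.36 to 0.91). Poll, polymerase lambda, had 520 and 422 counts (-0.24), and Polb, polymerase beta, 734 and 600 (-0.23). Of 7 relatives and partners of TdT, 0 lay beyond either 2-fold line, with a median of -0.24 (over all measured genes, 13.0% below and 13.6% above). Pcna, the sliding clamp, had -0.90, and Dnttip2, which encodes a TdT-interacting protein, had -0.70.

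Transcription factors known to act on these genes were mostly a little higher in the Dox library, with 16 of 22 measured log2 folds above 0. Of the 22, 3 lay above and 2 below the 2-fold lines (median log2 fold 0.61). Over all measured genes 13.6% lay above and 13.0% below, so these counts do not stand out. Those higher were Ikzf1 itself (3.35), Runx3 (2.54) and Foxo1 (99.0 and 332.3 CPM, 1.75). Foxo1 is known as an activator of Rag transcription in B cells, and Ikzf1 is the gene that the hairpin targets. Those lower were Id1, an inhibitor of E proteins (67 and 4 counts, -3.47), and Myb (287.4 and 141.1 CPM, -1.03). The E-protein genes Tcf3 (E2A) and Tcf12 (HEB), whose products bind the Rag and Ptcra control regions, had log2 folds of -0.15 and 0.54. Gata3 had 0.45. Levels of Elf1, an ETS factor known to bind the Dntt promoter, were 303.1 and 543.7 CPM. Pax5 and Ebf1, factors of B cells, had 0 counts in both libraries.

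Notch genes were divided. Of 14 genes of the pathway that acts on Ptcra, 5 lay below and 3 above the 2-fold lines and 6 between them (median log2 fold -0.47). For all measured genes the shares were 13.0% below and 13.6% above. The receptor gene Notch1 had 4195 and 1803 counts (245.7 and 110.1 CPM, log2 fold -1.16, interval -1.24 to -1.08), and Notch3 had 288 and 29 (-3.17). Among target genes, Nrarp had a log2 fold of -2.03, Hes1 -1.59, Heyl -1.33 and Hes5 -0.62, while the abundant target Dtx1 had 4084 and 4952 counts (0.34). Rbpj, the DNA-binding partner, had 633 and 483 counts (-0.33). Those higher were the coactivator genes Maml2 (33 and 308 counts, 3.20) and Maml1 (1.05), and Lfng, which modifies Notch receptors (1.55). Ptcra, with 32 and 1 counts, was lower, as were Notch3 and Nrarp, and unlike Dtx1.

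Genes of the proteins that pair with or act below the pre-T-cell receptor did not share the low values of Ptcra. Of 20 measured genes of the CD3 complex and its signalling chain, 6 lay above and 0 below the 2-fold lines, and 19 of the 20 log2 folds were above 0 (median 0.79). Over all measured genes 13.6% lay above and 13.0% below. Syk, 1 of the 6, reached 1 CPM through the Dox library alone and so had to be higher there. The CD3 chain genes Cd3e, Cd3d and Cd3g had log2 folds of 0.49, 0.62 and 0.55, and Cd247, the zeta chain, was at 390.2 and 779.8 CPM. Prkcq, protein kinase C theta, was at 266.6 and 825.9 CPM (1.63), and the phosphatase gene Ubash3b at 20.5 and 60.3 CPM (1.55). Lck, the proximal kinase, had 21835 and 19503 counts (-0.10). Syk, a kinase that pre-T cells use and that myeloid and B cells also express, went from 0 to 68 counts, which is at least 23.6-fold higher when 3 counts stand in for 0. The receptor alpha chain of the immature complex was at 1 count in a library in which its signalling partners were plentiful.

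**Figure D4:**
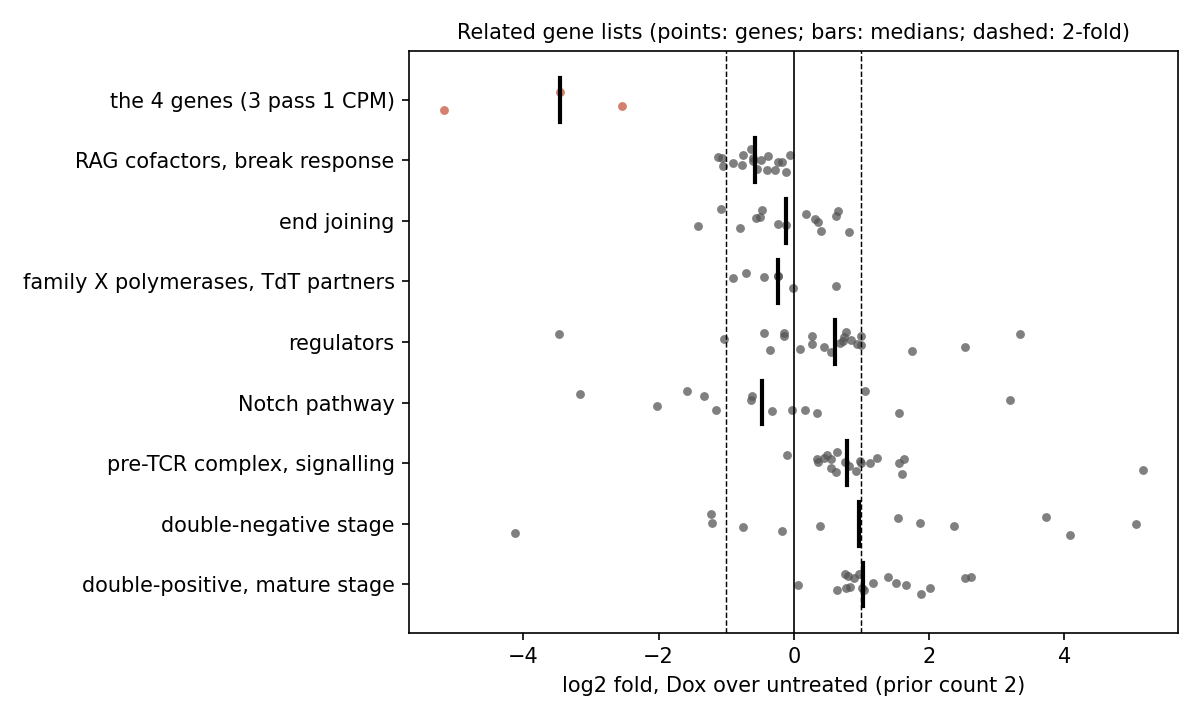
Log2 fold, Dox over untreated, of each measured gene (points) and the median (black bars) for the 4 genes and 8 related lists, with dashed lines at 2-fold. The 3 measured members lie between -5.17 and -2.54, the break response list has a median of -0.58, end joining -0.11, and pre-T-cell receptor signalling 0.79; genes of the 4 are left out of the other lists.

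Stage markers went both ways. Of 18 measured genes of double-positive and mature T cells, 10 lay above and 0 below the 2-fold lines (all genes: 13.6% and 13.0%; median log2 fold 1.02). They included S1pr1, needed for exit from the thymus (2.62), Runx3 (2.54), Cd53 (2.01) and Ccr9 (1.88). The coreceptor genes Cd4 (368.6 and 658.5 CPM, 0.84) and Cd8a (187.6 and 321.2 CPM, 0.78) were well expressed in both libraries. Of 12 measured double-negative stage genes, 6 lay above and 3 below them (median 0.97). Il2ra, a marker of the thymocyte stage at which the beta chain is rearranged, was among the lower ones (59.6 and 3.30 CPM, -4.13), with Slc3a2 (-1.23) and Cd24a (-1.21). Kit (4 and 192 counts), Spi1 (4 and 96 counts) and Flt3 (12 and 176 counts) were higher. These 3 and Lmo2 passed the filter through the Dox library alone, and myeloid and dendritic cells express some of them too.

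Most marker lists of other cell types summed higher in the Dox library, the opposite direction to Rag1, Dntt and Ptcra. The list of plasmacytoid dendritic cells summed lower. All 12 measured of 13 macrophage markers lay above the upper 2-fold line, with Marco at 0 in both libraries. Of the 12, 6 reached 1 CPM in the untreated library and 6 through the Dox library alone. Their list summed to 74.0 and 353.3 CPM, of which Itgam alone gave 60.6 and 181.0 CPM. All 5 measured of 8 markers of conventional dendritic cells also lay above that line (summed level 1.11 and 43.2 CPM). All 5 reached 1 CPM through the Dox library alone, with Clec9a, Zbtb46, Cd209a, Clec10a and Batf3 at 0 in the untreated library. For plasmacytoid dendritic cells, 5 of 8 measured markers lay above that line and 1 below the lower one, with Siglech, Klk1, Tlr7 and Tlr9 at 0 in the untreated library. Those 4 reached 1 CPM through the Dox library alone. A gene that enters in that way had to be higher there, so such genes add no weight to these counts of markers beside the summed levels. The summed level of that list was 413.0 and 245.9 CPM, most of it Ly6d (290.8 and 73.0 CPM), which lymphoid progenitors also express, and Bst2. Summed B-cell markers reached 1.23 and 5.92 CPM, with Pax5 and Ebf1 at 0 in both libraries. Erythroid markers summed to 12.0 and 78.9 CPM, natural killer markers to 2127 and 2811 CPM, nearly all of it Gzma, and neutrophil markers to 4.98 and 9.83 CPM. In each of these lists 1 measured marker had a log2 fold below 0, namely Klf1 (-0.46), Tbx21 (-0.51) and S100a8 (-0.04). The part of these other cell types in the lower values of the 4 genes was not tested. The T-lineage markers summed to 9680 CPM untreated and 11333 CPM with Dox, and 9 of the 11 had log2 folds above 0, with Thy1 (-0.16) and Lck (-0.10) below it. In bulk libraries, fewer cells that express a gene and less of its RNA per cell cannot be told apart.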

How the data were processed

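RNA of sorted ALL211 cells was sequenced, with 1 library per condition. The series design speaks of 2 mice per condition; pooling is not stated. The deposited files hold raw counts of reads for each Entrez gene, made with CASAVA 1.8.2 and featureCounts on mm10, per the submitters' processing notes; the aligner was not given in the sources used here. Values of the series table matched the sample tables (0 values differed), and its gene length column, an annotation and no other measurement, gave per-kilobase levels. RefSeq (GRCm38.p6) gave symbols for 25275 of 27179 genes and promoter windows for all 4 genes.

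Counts were scaled with TMM factors in edgeR 4.0.16 (R 4.3.3). Log2 folds use a prior count of 2; ratios and CPM use none. Ratios have exact Clopper-Pearson intervals from the conditional binomial distribution, levels exact Poisson intervals, and comparisons of 2 ratios exact conditional intervals. With 1 library each, no test between conditions was run. "Measured" genes reached 1 CPM in either library. DESeq2 1.42.0 size factors were an alternative. Python 3.11.15 (numpy 2.4.6, scipy 1.17.1, pandas 2.3.3) was used. The fold and interval steps were tested on simulated Poisson counts scaled by totals. That test did not cover TMM scaling, spread beyond counting error, or genes with counts as low as those of Rag2 and Ptcra.

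Genes, lists, motifs and alternatives were chosen with earlier results of these data known. Named were the 4 genes, set regulators, overlapping genes, up to 4 genes per list with the largest absolute log2 fold, the 2 nearest measured genes on each side and the 3 most similar genes; others were named for their role or value after values were seen. A few genes under this rule are not reported here.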

Additional observations from a re-analysis of the deposited data

How the results depend on the processing

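The log2 fold of Rag1 lay between -5.22 and -5.09, that of Dntt between -2.57 and -2.52 and that of Ptcra between -4.39 and -2.59 when counts were scaled by totals, by DESeq2 or by the upper quartile, with a prior count of 0.5 or 5, after thinning the deeper library, and after leaving 113 genes (mitochondrial, ribosomal, haemoglobin) or 64 markers of other cell types out of the totals. The count of the 4 genes at least 2-fold lower was 3, and 2 where at least 5 CPM was asked, since Ptcra then fails the filter. With a 4-fold threshold, 3.07% of all genes were lower. With at least 5 CPM, the median log2 fold of regulators was 0.71, of double-negative stage genes 0.39, of early B-cell genes -1.63 and of neighbours of the Rag locus -0.019. At the main filter of 1 CPM the neighbours of the Rag locus had a median of -0.88, so their median depends on the filter. With at least 1 count, the medians of double-negative stage genes and of Rag neighbours were 1.70 and -0.29, and that of early B-cell genes 0.041, above 0 where the reported median was -0.26; these filters change which genes enter. Double-negative stage genes had a median of 1.54 when those 113 genes were left out of the totals. Folds hardly moved in that setting (Rag1 from -5.1716 to -5.1703). Smaller totals raise CPM, however, so it can also change which genes enter. Hhex of that list, at 0.977 CPM in the Dox library, lay just under the 1 CPM filter. No paired analysis was possible because each group has 1 library, and no library could be left out for the same reason. Depth limits Rag2, at 2 and 0 counts, and the Dox level of Ptcra, at 1 count.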

Other observations

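Rag1, Rag2 and Dntt also serve B-cell precursors, so genes of that stage were looked up. Of 12 such genes besides the members, 4 reached 1 CPM in either library, of which 1 lay below and 1 above the 2-fold lines, with a median log2 fold of -0.26. The higher one, Blnk, reached 1 CPM through the Dox library alone. Shares over all measured genes were 13.0% below and 13.6% above. The surrogate light chain genes were near the floor, with Vpreb1 at 14 and 14 counts, Vpreb2 at 2 and 2 and Igll1 at 0 and 0, while Vpreb3 had 27 and 20. Bst1, a surface enzyme of B-cell precursors and myeloid cells, had 263 and 28 counts (15.4 and 1.71 CPM), a log2 fold of -3.09 with an interval of -3.79 to -2.61. Blnk had 2 and 18 counts, and the interleukin-7 receptor gene Il7r 1273 and 1083 (log2 fold -0.17).

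Ldlrad3, a gene farther out on the Rag side of the chromosome, had 85 counts in the untreated and 28 in the Dox library (log2 fold -1.48, interval -2.21 to -0.91), and Prr5l had 1 and 14.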
